A study of Mus musculus with 2 samples.

Results

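The genes described here are 10 of the 628 genes in the deposited table of brown adipose tissue, namely the myosin heavy chains Myh4, Myh1, Myh2 and Myh7, the myosin light chains Myl1, Myl3, Mylpf and Myl2, and the myosin-binding proteins C Mybpc2 and Mybpc1. They were chosen by name, as the fast and slow fibre forms of the thick filament proteins, with their values in these same libraries already known. All 10 were found in the table by their NCBI gene identifiers, which are 17884, 17879, 17882 and 140781 for the heavy chains, 17901, 17897, 17907 and 17906 for the light chains and 233199 and 109272 for the binding proteins, in the order just given. Because the choice rested on the values compared, what follows is a description of 2 libraries and no test supports it.

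The libraries came from C57BL/6 mice, 1 library with the genotype 3bKO and 1 with the genotype fl/fl, both from brown adipose tissue after 20 weeks on a high-fat diet labelled 60%. The labels name neither the deleted gene nor a Cre line, and give no sex, age or number of animals per library. The name of the table sets Myf5 against D3b without saying which library each stands for, so every direction below rests on the column headings, which carry the sample titles. RNA was poly(A)-selected and sequenced, and levels are FPKM, the fragments of a gene per length of its transcript, scaled to the mapped fragments of the library. Each genotype has a single library, so no replicate error or p-value exists, the order of levels cannot be set against any spread, and a ratio compares these libraries and not the genotypes. No source used here gives their depth. The tissue label could be checked only in part, since of 14 brown adipocyte markers just Dio2 and Ppargc1a were in the table, and a gene outside it has no value.

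Myosin is the motor of muscle contraction. A myosin molecule pairs heavy chains, which split ATP and pull on actin, with an essential and a regulatory light chain on the neck of each heavy chain, and myosin-binding protein C decorates the thick filament that the molecules form. Skeletal muscle fibres are typed by their heavy chain, from slow type I fibres with the product of Myh7, through fast type IIa (Myh2) and IIx (Myh1), to the fastest type IIb with the product of Myh4. Brown adipocytes and skeletal muscle fibres both descend from embryonic precursors that expressed Myf5, but mature brown adipocytes are not known for sarcomeric myosin.

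Every one of the 10 genes was more than 2-fold higher in the 3bKO library, where 47.1% of all genes in the table were. By more than 8-fold, 9 were higher, against 18.3% of the table, and in the same direction at any ratio stood 81.5% of the table. Myl3 is included in these counts although it was at 0.01 in fl/fl, the lowest value printed in the table, and has no ratio. Over the 9 genes with a ratio the median log2 ratio was 5.04, beside 0.94 over the 605 genes of the table with one. The range over the members was wide, with Myl1 at 1.75 and Myh7 at 6.95 on the log2 scale. In bulk tissue a larger number of muscle cells, whatever their source, and more of these RNAs per cell cannot be told apart.

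**Figure D1:**
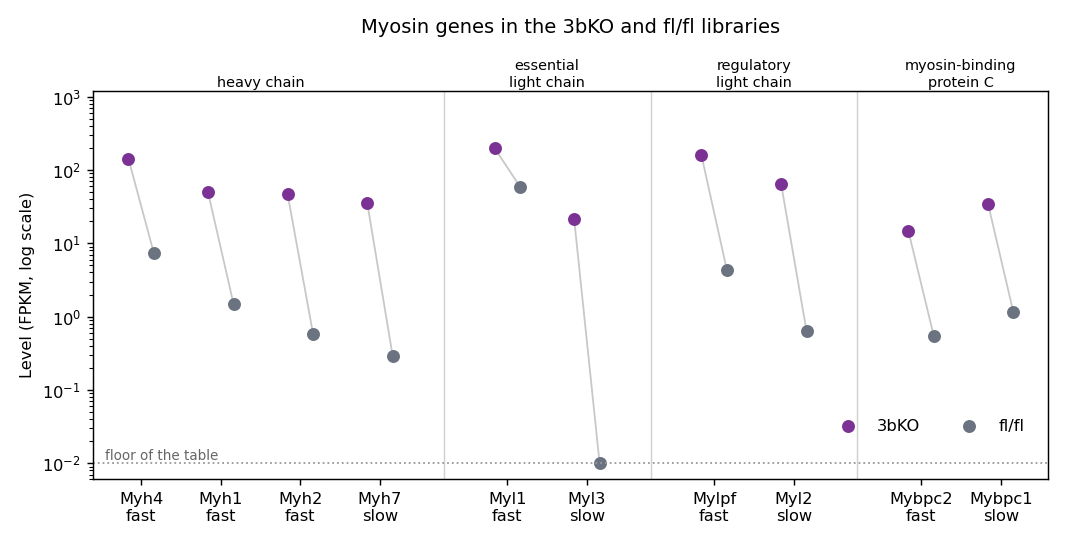
Levels of the 10 myosin genes in the 3bKO library (purple, left point of each pair) and the fl/fl library (grey, right point), in FPKM on a log scale, grouped by protein class, with 1 library per genotype and no error bars. In each gene the 3bKO point lies above the fl/fl point, the fl/fl point of Myl3 stands at 0.01, and Myl1 alone is above 10 FPKM in fl/fl.

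The fast heavy chain genes lie head to tail on chromosome 11 of GRCm38 (mm10), with Myh2 from 67171027 to 67197517, Myh1 from 67200102 to 67224577 and Myh4 from 67237812 to 67260447, all on the plus strand. Myh7 lies elsewhere, on the minus strand of chromosome 14 from 54970684 to 54994626. Bases from the 250 before the annotated starts are shown here because the heavy chain genes are the members that define the fibre types and 3 of them share a stretch there. Capitals mark that stretch of 20 bases, the longest common to the windows of Myh4, Myh1 and Myh2. Sequences are from RefSeq on GRCm38.p6, read 5′ to 3′ on the strand of the gene, and bases that a GENCODE vM1 transcript holds are left off. The stretches are chr11:67237562-67237811 for Myh4, chr11:67199852-67200051 for Myh1, chr11:67170777-67171026 for Myh2 and chr14:54994627-54994876 (minus strand) for Myh7, of whose starts the upstream one, at 54994626, was used.
Myh4: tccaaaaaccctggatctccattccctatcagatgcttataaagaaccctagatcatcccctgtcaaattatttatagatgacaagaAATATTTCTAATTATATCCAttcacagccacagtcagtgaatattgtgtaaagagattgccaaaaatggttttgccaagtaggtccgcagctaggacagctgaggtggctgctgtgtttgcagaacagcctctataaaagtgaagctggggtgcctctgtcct
Myh1: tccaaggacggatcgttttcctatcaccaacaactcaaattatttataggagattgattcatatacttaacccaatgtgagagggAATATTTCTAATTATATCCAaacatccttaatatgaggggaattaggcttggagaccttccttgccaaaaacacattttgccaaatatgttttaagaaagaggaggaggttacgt
Myh2: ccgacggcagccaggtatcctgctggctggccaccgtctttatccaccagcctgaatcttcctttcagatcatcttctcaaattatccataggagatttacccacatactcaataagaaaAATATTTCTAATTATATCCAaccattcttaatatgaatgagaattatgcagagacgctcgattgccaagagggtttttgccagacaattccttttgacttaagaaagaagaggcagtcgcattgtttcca
Myh7: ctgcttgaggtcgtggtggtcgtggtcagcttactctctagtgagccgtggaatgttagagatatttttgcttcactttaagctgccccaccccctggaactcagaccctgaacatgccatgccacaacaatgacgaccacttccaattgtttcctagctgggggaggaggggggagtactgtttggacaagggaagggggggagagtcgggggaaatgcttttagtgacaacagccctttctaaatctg

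The shared stretch ended 144 bases before the start in Myh4, 146 bases in Myh1 and 111 bases in Myh2. Of 32851 promoter windows in the RefSeq table, 3 held it on either strand (0.00913%), those of these genes. Neither window of Myh7 did. The stretch is a likeness between neighbouring copies of a gene, and no binding was measured.

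Myh4, which encodes the IIb heavy chain of the fastest mouse fibres, was the most abundant heavy chain in both libraries, at 142 FPKM in 3bKO and 7.3 FPKM in fl/fl, a ratio of 19.5. Myh1, the IIx heavy chain, was 49.4 FPKM in 3bKO and 1.5 FPKM in fl/fl, a ratio of 33.0. Myh2, the IIa heavy chain of fast oxidative fibres, was 46.6 FPKM in 3bKO and 0.58 FPKM in fl/fl, a ratio of 80.4. The order of levels was thus the same in both libraries, while the ratios ran the other way, with the least abundant fast form at the largest ratio.

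Myh7, the slow heavy chain of type I fibres and of the heart, was 35.8 FPKM in 3bKO and 0.29 FPKM in fl/fl. Its ratio of 123 was exceeded by 1 of the 605 genes with a ratio. Rounding of the deposited values to 2 decimals alone allows ratios from 121.2 to 125.5. Sampling of fragments, whose number in fl/fl is not known, adds an error that could not be estimated. With 1 FPKM added to both values the ratio of Myh7 was 28.5, below that of Myh2 at 30.1, so the order of these genes by ratio rests on fl/fl values under 1 FPKM.

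Added together, the heavy chains came to 274 FPKM in 3bKO and 9.67 FPKM in fl/fl. Of the sum, Myh4 made up 51.9% in 3bKO and 75.5% in fl/fl, and Myh1 18.0% and 15.5% in the same order. Myh2 made up 17.0% in 3bKO and 6.00% in fl/fl, and the slow form Myh7 13.0% and 3.00%. The mixture in the 3bKO library therefore held a smaller share of the IIb form and larger shares of the IIa and slow forms than that in fl/fl. How far these shares vary between mice of 1 genotype is not known from the data.

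These genes are alike in sequence, which bears on how fragments were divided among them. In proteins translated from GENCODE vM1 (NCBIM37), Myh4 and Myh1 were identical at 95.1% of aligned residues, Myh4 and Myh2 at 93.1% and Myh1 and Myh2 at 94.6%. Myh7 and Myh4 were identical at 81.9%. Of the 100-base windows of the coding sequence, 3.99% in Myh4, 10.2% in Myh1 and 9.58% in Myh2 occurred exactly in another heavy chain gene. In Myh7 the share was 12.0%, all of it with Myh6, the other heart heavy chain, which was not among the genes of the table. In the light chains, compared only with each other and with Myl4, no such window was shared. The program the submitters name, RSEM, apportions fragments that match several genes. By this measure, with a chosen window of 100 bases, the levels of Myh1, Myh2 and Myh7 are less certain than those of the light chains. Light chain genes outside this comparison were not checked.

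Overlapping genes are a further limit, since the sources used here do not say that counting used the strand. The span of Myh7 overlaps Mhrt, a long noncoding RNA described from the opposite strand in mouse heart. Mhrt was also in the table, at 14.2 FPKM in 3bKO and 0.24 FPKM in fl/fl. If counting ignored the strand, fragments of these genes could not be told apart where their transcripts overlap. Whole spans were compared, introns included, so it is not known whether any fragments were shared. The span of Myh7 also overlaps Gm31251 and Mir208b. The spans of Myh1, Mylpf, Myl2 and Mybpc2 overlap other annotated genes as well (Myhas, Septin1, Ccdc63 and Fam71e1). Apart from Mhrt, none of the overlapping genes was in the table. Overlaps were found without regard to strand.

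Among the light chains, Myl1 stood apart in fl/fl. Myl1, which encodes the essential light chain of fast fibres, lies on chromosome 1 from 66924295 to 66947932. It was 199 FPKM in 3bKO, the most abundant member there, and 59.4 FPKM in fl/fl, a ratio of 3.35. Its fl/fl level was 8.13 times that of the next member, Myh4, and its ratio was the smallest of the 9. All other members with a ratio were 19.5-fold higher or more, and without Myl1 their median log2 ratio was 5.13. The span of Myl1 overlapped no other annotated gene.

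Myl3, the essential light chain of slow fibres and of the heart ventricle, lies on chromosome 9 from 110763678 to 110769802. It was 21.5 FPKM in 3bKO and had the lowest printed value, 0.01, in fl/fl, so no ratio is given. The protein shares 75.0% of aligned residues with that of Myl1, and the coding sequences share no 100-base window. Within the essential class the fast form made up nearly all of the fl/fl level, and the slow form 9.76% of the summed level in 3bKO.

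Mylpf, the phosphorylatable regulatory light chain of fast fibres, lies on chromosome 7 from 127208848 to 127214288. It was 159 FPKM in 3bKO and 4.28 FPKM in fl/fl, a ratio of 37.1. Myl2, the regulatory light chain of slow fibres and of the heart ventricle, lies on chromosome 5 from 122092724 to 122113473. It was 65.4 FPKM in 3bKO and 0.64 FPKM in fl/fl, a ratio of 102. The slow form thus took 29.2% of the regulatory sum in 3bKO and 13.0% in fl/fl.

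**Figure D2:**
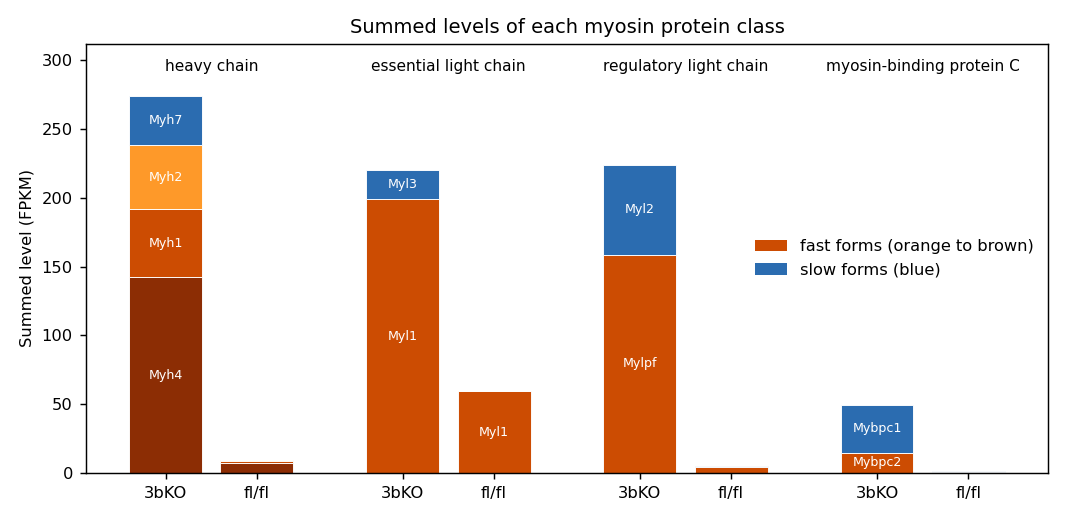
Summed FPKM of each myosin protein class (linear axis from 0), with the 3bKO library left of the fl/fl library in each class, fast forms in orange to brown and slow forms in blue. In 3bKO the heavy, essential and regulatory sums were 274, 220 and 224 FPKM, while in fl/fl they were 9.67, 59.4 and 4.92 FPKM, the essential bar being almost all Myl1.

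In the protein each heavy chain carries 1 light chain of each class. The class sums of RNA are set side by side here, on a scale that is already per length. Protein was not measured, and RNA sums need not follow its ratios. In 3bKO the essential light chains summed to 0.804 and the regulatory light chains to 0.818 of the heavy chain sum. In fl/fl the regulatory sum was 0.509 of the heavy chain sum, but the essential sum was 6.14 times it. Myl1 over Mylpf, the fast partners, was 1.25 in 3bKO and 13.9 in fl/fl. The light chain classes were therefore close to each other in the 3bKO library and far apart in the fl/fl library, where Myl1 made up nearly all of the essential sum. Essential light chains of other muscles and of nonmuscle cells (Myl4, Myl6 and Myl6b) were not among the genes of the table and do not enter these sums.

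Stretches of the fast light chain windows are shown because these genes, partners on the same heavy chains, had such unlike ratios. Whether the windows bear on the ratios was not tested. Capitals mark the letters CAGCTG, a form of the E-box that the muscle regulators of the MyoD family can bind. The stretches are chr1:66945144-66945306 (minus strand) for Myl1 and chr7:127211358-127211607 for Mylpf, of GRCm38.p6. The starts used, at 66945056 for Myl1 and at 127211608 for Mylpf, lie inside the annotated spans of these genes. Other starts of these genes are not shown.
Myl1: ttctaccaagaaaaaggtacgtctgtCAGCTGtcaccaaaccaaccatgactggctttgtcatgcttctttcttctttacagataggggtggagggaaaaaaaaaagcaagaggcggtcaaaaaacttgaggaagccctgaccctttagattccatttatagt
Mylpf: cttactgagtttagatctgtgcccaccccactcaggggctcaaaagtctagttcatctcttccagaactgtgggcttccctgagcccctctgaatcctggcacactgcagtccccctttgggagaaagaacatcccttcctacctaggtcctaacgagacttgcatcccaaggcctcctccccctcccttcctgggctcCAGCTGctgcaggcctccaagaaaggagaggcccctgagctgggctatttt

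The CAGCTG form began 224 bases before the start in Myl1 and 51 bases before it in Mylpf. It was found in windows of 5 of the 10 genes (Myh4, Myl1, Mylpf, Myl2 and Mybpc1) and in 13.0% of all windows. The general E-box CANNTG, which includes it, was found in 8 of the 10 genes and in 66.2% of all windows. A CArG box, the site of serum response factor, was present in Myh4 and Myl3 and in 1.47% of windows, and a MEF2 site in Myh4 and Myh1 and in 2.92%. Both strands were searched. Myh7 and Myl2 had a pair of windows each, and either counted for the gene. The other genes had 1 window each. Those of Myl1, Mylpf, Mybpc2 and Mybpc1 lie before starts inside the annotated spans. The counts therefore do not cover any start of these genes further upstream. CAGCTG and CArG matches occurred in fast and in slow genes, and MEF2 matches in fast heavy chains. All are letters in a short window and not binding.

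**Figure D3:**
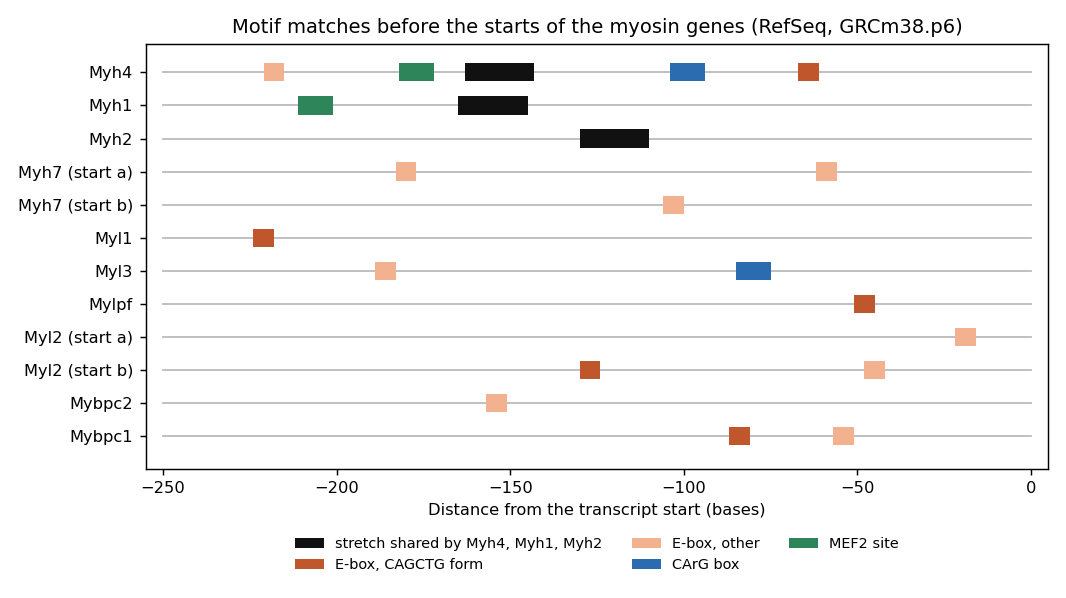
Positions of motif matches in the 250 bases before 12 annotated starts of the 10 genes (x axis, distance from the transcript start in bases). Myh7 and Myl2 are shown for both starts used. The black bars are the 20-base stretch shared by Myh4, Myh1 and Myh2, and the dark orange bars are CAGCTG.

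The myosin-binding proteins C were the least abundant class in 3bKO. Mybpc2, the fast form, lies on chromosome 7 from 44501699 to 44524715 and was 14.7 FPKM in 3bKO and 0.54 FPKM in fl/fl, a ratio of 27.2. Mybpc1, the slow form, which mouse fast fibres also contain, lies on chromosome 10 from 88518279 to 88605229 and was 34.8 FPKM in 3bKO and 1.14 FPKM in fl/fl, a ratio of 30.6. Named for slow fibres, Mybpc1 made up 70.3% of the class in 3bKO and 67.9% in fl/fl, while the slow form was the minor one in the heavy chains and both light chain classes. The balance within this class was close in the libraries, unlike that of the heavy chains.

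Other proteins of the fibre that exist as fast and slow forms were set beside the myosins, from lists of 8 fast and 8 slow fibre genes. All 8 fast genes were in the table and more than 2-fold higher in 3bKO, beside 47.1% of the table, with a median log2 ratio of 4.96. Their summed level was 1179 FPKM in 3bKO and 37.3 FPKM in fl/fl. Of the 8 slow genes 6 were in the table, all higher by more than 2-fold, and their sum was 147 FPKM in 3bKO and 4.16 FPKM in fl/fl. Atp2a2, a calcium pump that other tissues also use, and Sln were not in it. The part that fibres of muscle had in the myosin values was not tested.

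The troponins are the calcium switch of the thin filament. Troponin T of fast fibres, Tnnt3, was 440 FPKM in 3bKO and 12.4 FPKM in fl/fl, and its slow form Tnnt1 was 48.5 FPKM in 3bKO and at 0.01 in fl/fl. Troponin I of slow fibres, Tnni1, was 19.8 FPKM in 3bKO and 0.19 FPKM in fl/fl, a ratio of 104, while that of its fast form Tnni2 was 37.3. For troponin C the ratio was 48.5 in the slow form Tnnc1 and 39.3 in the fast form Tnnc2. The slow forms made up 9.93%, 9.30% and 15.6% of troponin T, I and C in 3bKO, beside 13.0% of the heavy chains, 9.76% of the essential and 29.2% of the regulatory light chains and 70.3% of myosin-binding protein C.

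In calsequestrin, the calcium store of the sarcoplasmic reticulum, and in alpha-actinin of the Z-disc the order of ratios was the opposite. Casq2 had a ratio of 5.58 and its fast partner Casq1 one of 15.7, and Actn2 had a ratio of 10.3 and its fast partner Actn3 one of 27.4. Both Casq2 and Actn2 occur in some fast fibres too. Myoz2, a slow Z-disc protein, was 9.61 FPKM in 3bKO and at 0.01 in fl/fl, and the fast form Myoz1 was 18.6 FPKM in 3bKO and 0.46 FPKM in fl/fl. Without a pseudocount the slow form had the larger ratio in the heavy chains, the regulatory light chains, myosin-binding protein C and the troponins I and C. The essential light chains, troponin T and myozenin could not be compared so, since their slow forms were at 0.01 in fl/fl. With 1 FPKM added to both values, an alternative that for the troponins was chosen after seeing the data, the order turned round in the troponins. Tnni1 then had a ratio of 17.5 and Tnni2 one of 31.5, and Tnnc1 had 23.0 and Tnnc2 33.7. Myh7, at 28.5, was then below Myh2, as given above, but still above Myh1 at 20.2 and Myh4 at 17.3. In the regulatory light chains the slow form remained ahead, with 40.5 for Myl2 and 30.3 for Mylpf. It did so in myosin-binding protein C too, with 16.8 for Mybpc1 and 10.2 for Mybpc2. In the essential light chains Myl3 then had 22.3 and Myl1 3.31, where the Myl3 value rests on the 0.01 in fl/fl. Troponin T and myozenin were not compared with a pseudocount. The order of Myh7 and Myh2, and that of the slow and fast forms of troponins I and C, therefore depends on fl/fl levels under 1 FPKM.

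**Figure D4:**
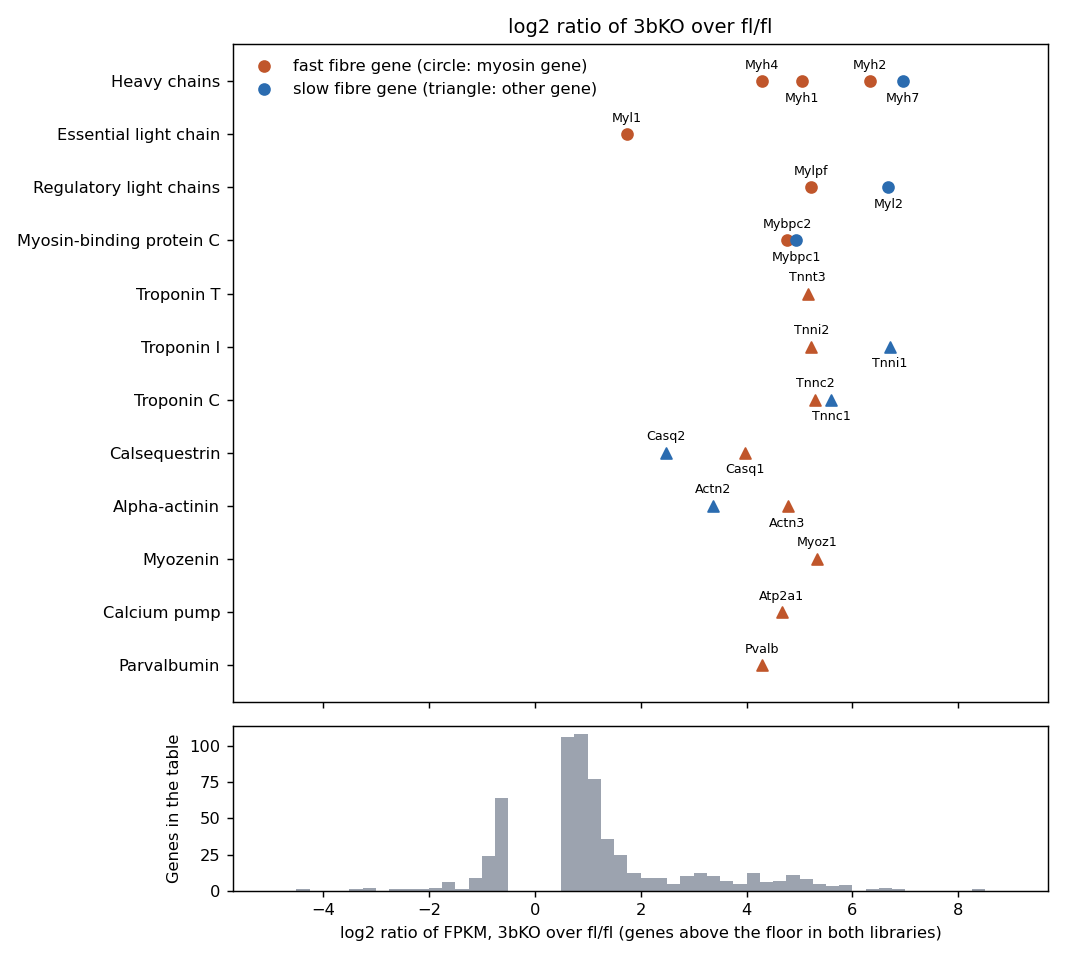
The upper panel gives the log2 ratio of FPKM, 3bKO over fl/fl, for 9 myosin genes (circles) and 12 other fast (orange) and slow (blue) fibre genes (triangles), and the lower panel the same ratio for the 605 genes of the table with one, as a histogram. Myl1 lies at 1.75 and the other myosins between 4.29 and 6.95; the empty bins around 0 are ratios the table does not list.

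In rank of level within the table, Myl1 stood 21st in 3bKO and 51st in fl/fl, Mylpf 27th and 363rd, and Myh4 33rd and 291st. The members together took 2.63% of the FPKM summed over the table in 3bKO and 0.350% in fl/fl. These are shares of a selected list and not of the libraries. No gene is named for a likeness of pattern, since 2 libraries give none. All 10 genes had at least 10 FPKM in 3bKO, and 5 were under 1 FPKM in fl/fl (Myh2, Myh7, Myl3, Myl2 and Mybpc2).

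Of 23 other myosin genes listed, which take in the embryonic and neonatal heavy chains Myh3 and Myh8, the atrial chains Myh6 and Myl7 and the smooth muscle and nonmuscle forms, 3 were in the table. Mylk2, the kinase that phosphorylates the regulatory light chain in skeletal muscle, was 9.58 FPKM in 3bKO and 1.12 FPKM in fl/fl, a ratio of 8.55. Mylk4 was 4.53 FPKM in 3bKO and 0.44 FPKM in fl/fl, and Myo18b, an unconventional myosin of striated muscle, was 1.78 FPKM in 3bKO and 0.09 FPKM in fl/fl. None of 8 genes of satellite cells and muscle regulators (Pax7, Myod1 and Myog among them) and none of 7 heart genes was in the table. Of 6 smooth muscle genes 1 was, Des, which skeletal muscle also expresses, at 89.6 FPKM in 3bKO and 45.7 FPKM in fl/fl. Of the brown adipocyte genes, Dio2, the deiodinase, was 20.6 FPKM in 3bKO and 48.0 FPKM in fl/fl, and Ppargc1a, a coactivator of mitochondrial genes, 17.5 FPKM and 32.5 FPKM in the same order. Since the table lists no gene with an absolute log2 ratio below 0.50, a gene outside it may be present at any level in both libraries.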

How the data were processed

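Brown adipose tissue of 1 3bKO and 1 fl/fl sample was sequenced after poly(A) selection. The authors deposited FPKM values for 628 genes, rounded to 2 decimals and with a lowest value of 0.01, and per the labels' processing notes used RSEM and the build mm10, with no version given. The gene filter was not given in the sources used here, nor was strand use in counting, and genes below an absolute log2 ratio of 0.50 are absent from the table. Depth was not recovered, since the transcript lengths behind the FPKM were not stated.

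Identifiers were paired with symbols from RefSeq annotation of GRCm38.p6, and 627 of 628 matched. Ratios are 3bKO over fl/fl FPKM without a pseudocount, and none was formed with a value at 0.01. In counts past a fold, such genes entered at 0.01. No test was run, for want of replicates. Promoter windows, motif matches and protein identities (global alignment, BLOSUM62) were computed from RefSeq and GENCODE vM1 sequences, and the functions were tested on simulated data. Named genes are the 10 members, listed partners, genes of the other lists and genes that overlap a member. Naming single genes of the thick filament and M-band list went beyond the rule set for it. The members and lists were chosen with earlier results of these data known. Alternatives were fold thresholds, minimum levels, pseudocounts and sums without single genes. Python 3.11.15, NumPy 2.4.6, pandas 2.3.3, Biopython 1.88 and Matplotlib 3.10.9 were used.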

Additional observations from a re-analysis of the deposited data

How the results depend on the processing

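The count of 10 members more than 2-fold higher was 10 at 1.5-fold and 3-fold, 9 at 4-fold and 8-fold, and 10 with pseudocounts of 0.1 or 1 or with at least 1 FPKM in the higher library, but 5 with at least 1 FPKM in both libraries, since the other 5 were below that in fl/fl. The median log2 ratio of 5.04 was 4.41 with a pseudocount of 1 over all 10 members, and moved by less than 1.5 times with a pseudocount of 0.1, when both libraries had to reach 1 FPKM, and without Myl1, which was chosen after seeing the data. With a pseudocount of 1, 6 of the 9 ratios moved by more than 1.5 times, and with 0.1 none did; none changed direction, but the slow and fast forms of troponins I and C changed their order with a pseudocount of 1. The slow share of the heavy chain sum in 3bKO, 13.0%, was 27.1% without Myh4. The slow share of the light chain sum, 19.6%, was 9.76% in the essential and 29.2% in the regulatory light chains. The share of the table's FPKM moved by less than 1.5 times with the muscle lists left out of the denominator. Without replicates or depth, no setting shows how far these values vary between mice. No paired analysis was possible because each genotype has 1 library.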

Other observations

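Around the myosin filament, 11 of 16 listed genes of the thick filament and M-band were in the table, each of them higher in 3bKO (81.5% of the table was), 10 more than 2-fold (47.1% of the table), with a median log2 ratio of 2.98 and sums of 74.8 FPKM in 3bKO and 14.4 FPKM in fl/fl. Ttn, the giant spring titin, was 4.69 FPKM in 3bKO and 0.16 FPKM in fl/fl, a ratio of 29.3, within the range of the heavy chains. The myomesins, which crosslink thick filaments at the M-band, differed among themselves. Myom2, typical of fast fibres, had a ratio of 17.6, while Myom1 was 10.8 FPKM in 3bKO and 3.0 FPKM in fl/fl, a ratio of 3.59, and Myom3 was 4.93 FPKM in 3bKO and 1.94 FPKM in fl/fl, a ratio of 2.54.

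Among the listed genes with small ratios were Unc45b and Smyd1. Unc45b, a myosin chaperone, was 9.78 FPKM in 3bKO and 5.86 FPKM in fl/fl, a ratio of 1.67, and its partner Smyd1 was 4.82 FPKM in 3bKO and 1.4 FPKM in fl/fl, a ratio of 3.44. In 3bKO Myh4, at 142 FPKM, was far above Unc45b, whereas in fl/fl it was 7.3 FPKM and close to it. Unc45b and Smyd1 were picked out after their values were seen. With 1 library per genotype the difference between them and the myosin genes cannot be set against any spread.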
